A study of Emberiza melanocephala with 15 samples.

Results

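Described here are 100 assembled genes of the blackheaded bunting (*Emberiza melanocephala*) hypothalamus whose RNA level differed most between the photosensitive and the photorefractory state relative to the spread among birds. They were taken from 23820 assembled genes whose estimated counts summed to 20 or more in 7 or more of the 15 libraries, out of 317533 assembled genes in all. For each gene the level was the log2 of CPM + 1, where CPM is the summed count per 1000000 counts of the library. The gap is the mean level of the 8 photosensitive birds minus that of the 7 photorefractory birds, and the score is the size of the gap divided by the sum of the 2 standard deviations (SD) within the states. The 100 genes of highest score are the members. They were selected on the contrast of the states in all 15 birds, so their state gaps and scores are given as a description, without a test.

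In birds that breed on long days, the hypothalamus reads the length of the day and, in the photosensitive state, answers a long day by raising local thyroid hormone activity and the release of gonadotropin-releasing hormone. Birds kept on long days for long enough become photorefractory, which means that their gonads have regressed and long days no longer stimulate them. Both states have small gonads, but they differ in responsiveness to long days and in stage, which the paper describes as non-breeding and post-breeding.

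All birds were wild-caught adult males, and each library came from the total RNA of 1 hypothalamus. Photosensitive birds had been held on short days and photorefractory birds on long days, and on the day of sampling the lights of both stayed on past the usual time. Tissue was taken 10, 14, 18 or 22 h after light onset, from 2 birds per state and hour except photorefractory hour 22, which had 1 bird. All 4 hours came after the usual lights-off of the short days, whereas hours 10 and 14 lay inside the usual light period of the long days. State and day length before sampling therefore cannot be told apart. No table used here pairs the assembled identifiers with gene names, so the members are given by identifier, their functions are not described, and neither the tissue nor its cell types could be checked against markers. In RNA from a whole tissue, a lower level can come from fewer cells of a type or from less RNA per cell, and these cannot be told apart.

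Depth ranged from 3176062 to 9403923 counts per library, and a count of 0 allowed up to 0.319 CPM in the deepest and 0.945 CPM in the shallowest library (3 counts, counting error only). Both photorefractory birds of hour 18 stood apart. They were the shallowest libraries, they had the shortest mean fragments (231 and 209 nt, against 242 to 263 nt in the others), and they had counts above 0 for the fewest assembled genes (69467 and 67260, against 87988 to 156146). The main results that rest on these birds are given with and without them.

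The label under which the genes were collected, genes that separate the states at all hours, held for 81 of the 100 members if it is read as a gap of the same direction at each hour. Among all genes kept, 11.6% had a gap of the same direction at the 4 hours. The other 19 members had the opposite direction at hour 22. The genes are therefore called here by their rule, as the 100 genes of highest score.

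Of the members, 65 were higher in the photosensitive and 35 in the photorefractory birds, while 53.6% of all genes kept were higher in the photosensitive birds. This split depended on the setting. The list held 53 and 47 without the photorefractory pair of hour 18, 80 and 20 without the second photosensitive bird of hour 18, and 82 and 18 with a minimum of 5 counts. Scores ran from 1.01 to 1.72 with a median of 1.09, against a median of 0.215 over all genes kept, and 105 genes scored over 1. The member of rank 100, TRINITY_DN89508_c1_g2, had a score of 1.007 and a gap of 0.53, and the next gene, TRINITY_DN88217_c0_g2, had a score of 1.006 and a gap of 0.36. The list thus ends within a continuous run of scores.

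**Figure D1:**
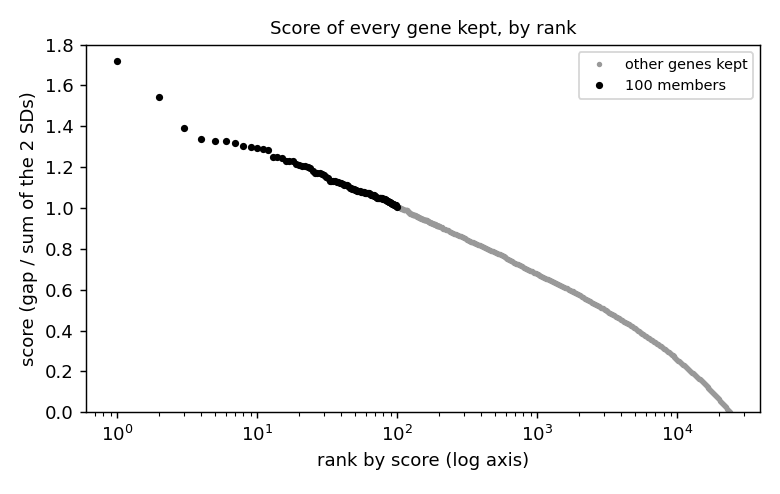
Score of each of the 23820 genes kept (vertical axis, gap divided by the sum of the 2 SDs) against its rank (horizontal axis, log scale). Black points are the 100 members and grey points the other genes. The highest scores were 1.72 and 1.54, and no break separates rank 100 (1.007) from the next gene (1.006).

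By the median, the members had larger gaps and tighter groups than all genes kept, though most of them differed by less than 2-fold. The size of the gap ran from 0.20 to 1.99 log2 units with a median of 0.62, against a median of 0.20 for all genes kept. As a ratio of mean CPM, 77 members differed by less than 2-fold, 23 by 2-fold or more and 6 by 3-fold or more. The median SD of the level within a state was 0.24 in photosensitive and 0.32 in photorefractory birds for the members, and 0.50 and 0.47 for all genes kept. The rule divides the gap by these SDs, so the larger gap and the low spread are properties of the choice.

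Members higher in the photosensitive birds had a median gap of 0.66 (median ratio 1.66, highest 5.57), and those higher in the photorefractory birds a median gap of -0.60 (median ratio 1.54, highest 3.82). Mean CPM was lower in the first set, with a median of 10.2 and a range of 2.68 to 242, than in the second, with a median of 27.1 and a range of 3.62 to 597. Over both sets, 43 members had a mean CPM under 10, 48 from 10 to 100, and 9 over 100. A summed count of at least 20 in all 15 libraries was found for 55 members, close to the 56.5% of all genes kept. The other 45 passed the filter in 7 to 14 libraries. The birds of a single state were enough to meet the filter, so members could pass through the state in which they were higher. How many did so was not counted, and it bears on the split by direction and on the mean CPM of the sets. A count of 0 in some library was found in 2 members, and no member had a whole state at 0.

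TRINITY_DN100459_c3_g4 had the highest score and was higher in photorefractory birds. Its CPM ran from 9.98 over a median of 12.9 to 15.2 in the 8 photosensitive birds, and from 15.9 over 21.8 to 25.3 in the 7 photorefractory birds. The groups did not overlap, and the nearest birds of the states differed by less than 1 CPM. The means were 12.6 ± 1.77 (SD, n = 8) and 21.0 ± 3.06 CPM (SD, n = 7), a 1.66-fold ratio. The single transcript of this gene is 274 nt long. Its read cluster, the set of assembled genes that Trinity built from connected reads, holds 4 genes, and the gap of the summed cluster was -0.03 against -0.69 for the gene.

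TRINITY_DN90858_c1_g3 ranked second and had the next to largest gap among members higher in photorefractory birds. In photosensitive birds its CPM was 11.1 and 16.9 at hour 10, 10.5 and 9.43 at hour 14, 16.2 and 11.6 at hour 18, and 25.4 and 30 at hour 22. In photorefractory birds it was 38.1 and 35.1, 36 and 30.7, 48.2 and 51.6, and 35.3 at the same hours. The highest photosensitive birds were both of hour 22, and every photorefractory bird lay above them. The means were 16.4 ± 7.56 (SD, n = 8) and 39.3 ± 7.66 CPM (SD, n = 7), a 2.40-fold ratio. The gap was -1.36, -1.64, -1.79 and -0.34 at hours 10, 14, 18 and 22. Summed over its read cluster of 3 genes, the gap was -1.31 against -1.30 for the gene alone.

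TRINITY_DN94468_c2_g3 had the highest score among members higher in photosensitive birds. Its CPM ran from 5.61 over a median of 8.01 to 10.6 in photosensitive birds, and from 2.32 over 3.53 to 6.61 in photorefractory birds. One bird of photorefractory hour 14 reached into the photosensitive range, so the groups overlapped. The means were 8.03 ± 1.48 (SD, n = 8) and 3.99 ± 1.43 CPM (SD, n = 7), a 2.01-fold ratio, and the read cluster of 5 genes had a gap of 0.24 against 0.89 for the gene. TRINITY_DN94630_c0_g2, next in score, ran from 3.95 over 4.90 to 6.83 CPM in photosensitive birds and from 1.89 over 3.10 to 3.69 CPM in photorefractory birds. Here the groups did not overlap, with 3.95 CPM in the lowest photosensitive and 3.69 CPM in the highest photorefractory bird, the bird of hour 22. The means were 5.18 ± 0.999 (SD, n = 8) and 3.0 ± 0.628 CPM (SD, n = 7).

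**Figure D2:**
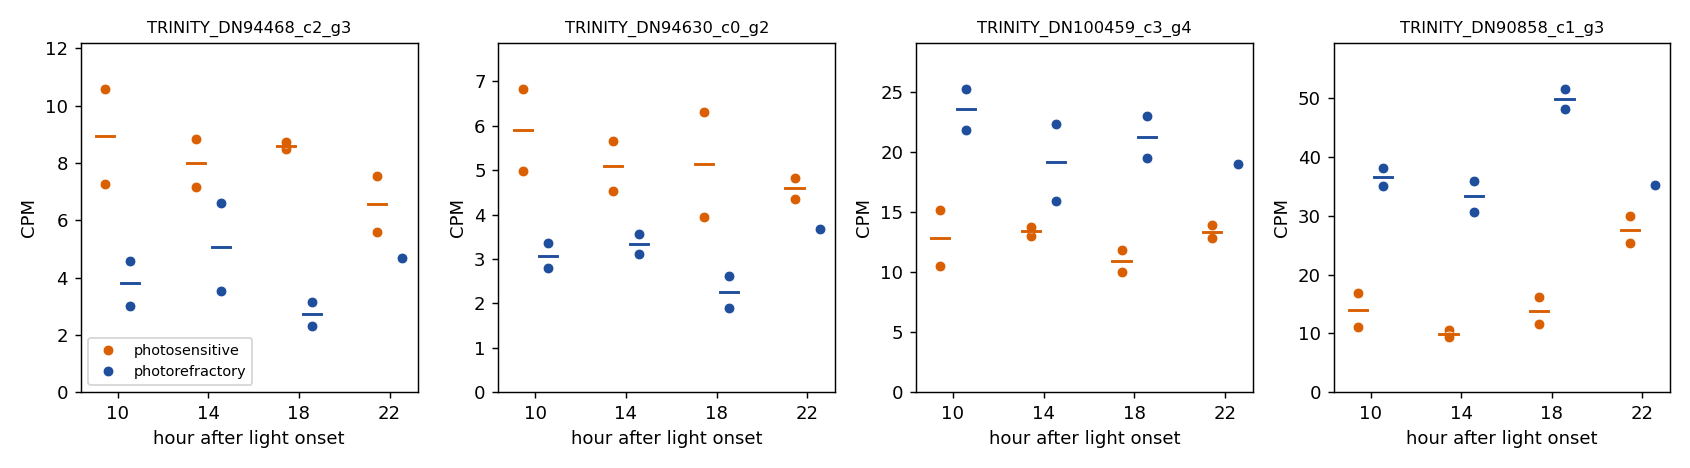
CPM of the 4 members of highest score in their direction, by hour after light onset. Points are birds, coloured by state, and lines are group means of 2 birds (photorefractory hour 22 had 1 bird). TRINITY_DN94468_c2_g3 and TRINITY_DN94630_c0_g2 were higher in photosensitive birds, at means of 8.03 and 5.18 CPM, and TRINITY_DN100459_c3_g4 and TRINITY_DN90858_c1_g3 were higher in photorefractory birds, at means of 21.0 and 39.3 CPM.

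Some members of large gap ranked low by score. TRINITY_DN91056_c2_g1, of rank 77, had the largest gap of all, 1.99. Its CPM ran from 2.35 over a median of 13.1 to 34.0 in photosensitive birds and from 0.846 over 2.2 to 6.61 in photorefractory birds. The groups overlapped, since a photosensitive bird of hour 22 was at 2.35 CPM and another of hour 18 at 5.32 CPM. The means of 15.8 ± 10.7 (SD, n = 8) and 2.84 ± 2.12 CPM (SD, n = 7) gave the highest ratio among the members, 5.57. Its gap fell in size over the hours sampled, with 3.12, 2.23, 1.69 and 0.71 at hours 10, 14, 18 and 22.

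TRINITY_DN93588_c0_g1, of rank 97, had a gap of 1.72 and means of 12.1 ± 4.57 (SD, n = 8) and 4.03 ± 4.02 CPM (SD, n = 7). Photosensitive birds ran from 8.06 over a median of 9.91 to 18.7 CPM. Photorefractory birds had 1.06 and 1.86 CPM at hour 10, 4.80 and 6.25 at hour 14, 0 and 2.52 at hour 18, and 11.7 at hour 22. The bird of hour 22 was the exception, and 14 of the 15 birds did not overlap between the states. The bird at 0 was one of the shallow pair of hour 18, in which 0 counts allowed up to 0.872 CPM.

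In the other direction, TRINITY_DN85007_c5_g4 had the largest gap, -1.40, at rank 56. Photosensitive birds ran from 0.533 over 1.31 to 4.10 CPM, and photorefractory birds had 6.36 and 5.34 CPM at hour 10, 3.95 and 5.36 at hour 14, 11.2 and 11.9 at hour 18, and 1.68 at hour 22. The highest photorefractory values were thus those of the birds of hour 18. The bird of hour 22 and the bird of hour 14 at 3.95 CPM lay within the photosensitive range. The read cluster of 4 genes had a gap of -0.70, and without the photorefractory pair of hour 18 the gap of the gene was -1.04. The lowest summed count of this gene in a library was 3, in a photosensitive bird of hour 10. Most of the libraries through which it passed the filter were photorefractory.

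The most abundant members had well-counted differences of less than 2-fold, as most members did. TRINITY_DN84689_c3_g1 ran from 394 over a median of 496 to 623 CPM in photosensitive and from 589 over 686 to 945 CPM in photorefractory birds, with means of 505 ± 77.0 (SD, n = 8) and 703 ± 122 CPM (SD, n = 7). TRINITY_DN88775_c6_g4 ran from 144 over 194 to 251 CPM in photosensitive and from 221 over 318 to 342 CPM in photorefractory birds. Its means were 198 ± 39.7 (SD, n = 8) and 299 ± 46.8 CPM (SD, n = 7) and its gap at hour 14 was -2.0e-04, far inside the spread of the birds. Both were higher in photorefractory birds and overlapped between the states.

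TRINITY_DN95134_c0_g4 ran from 222 over a median of 278 to 350 CPM in photosensitive birds. Photorefractory birds were at 187 and 208 CPM in hour 10, 199 and 162 at hour 14, 182 and 172 at hour 18, and 276 at hour 22. The first 6 photorefractory birds lay below every photosensitive bird, and the bird of hour 22 lay among them. TRINITY_DN100655_c0_g1 showed the same order, with 150 to 218 CPM in photosensitive birds, 89.8 to 160 CPM in the photorefractory birds of hours 10 to 18 and 192 CPM in the bird of hour 22, apart from an overlap at 150 and 160 CPM.

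Few members separated the states completely. Over all 15 birds, 15 members had groups that did not overlap in CPM, of which 8 were higher in photosensitive (0.042% of all genes kept) and 7 in photorefractory birds (0.0294%). They were 15 of the 17 such genes among the 23820 (0.0714%). The separation was narrow. The nearest birds of the states differed by a ratio of 1.0 to 1.10, with a median of 1.03. Without the photorefractory bird of hour 22, 45 members did not overlap, against 0.814% of all genes kept. Without the photorefractory pair of hour 18 the number was 19 (0.118%).

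Across all genes the contrast of the states, with hour as a term, had 0 calls of 23820 (0%) by edgeR's quasi-likelihood test at a Benjamini-Hochberg adjusted p of 0.05 or less. The smallest adjusted p was 0.0664, for TRINITY_DN90858_c1_g3, and the members ran from there to 0.394. All 100 members had an unadjusted p under 0.05 (12.3% of all genes), and the rule had used the same contrast. DESeq2 called 152 genes (0.638%), 48 of them members. Because the rule chose the members on this contrast, nothing is read from these counts beyond the fact that no single member passed edgeR's threshold over 15 birds.

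The calls depended on the birds of hour 22, and the number of small unadjusted p values on those of hour 18. Without its single photorefractory bird, edgeR called 48 genes (0.202%), 30 of them higher in photosensitive birds, with a smallest adjusted p of 9.2e-04. Of these, 15 were members, 10 higher in photosensitive and 5 in photorefractory birds. In that fit hour 22 held photosensitive birds only. With hour as a term, the state contrast itself then rested on hours 10, 14 and 18. The birds of hour 22 entered only the estimates of spread and the normalization. On the birds of hours 10, 14 and 18 alone, edgeR called 1 gene (0.0042%), TRINITY_DN90858_c1_g3, at an adjusted p of 0.00307, and this gene alone was called when the second photosensitive bird of hour 22 was left out. Without the shallow photorefractory pair of hour 18, edgeR called 0 genes, with a smallest adjusted p of 0.996. Its unadjusted p was then under 0.05 for 1098 of 23820 genes, against 2932 (12.3%) with all birds. On the birds of hours 10, 14 and 18 alone the number was 4258. Without all birds of hour 18, edgeR called 0 genes and the unadjusted p was under 0.05 for 1240. The larger numbers of small p values for state were thus not seen once the photorefractory pair of hour 18 was left out. The cause was not tested.

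The gaps were then read hour by hour. At hours 10, 14 and 18 all 100 members had the direction of their overall gap, while 81 did so at hour 22, which were 51 of the 65 higher in photosensitive and 30 of the 35 higher in photorefractory birds. Over all genes kept the shares with the direction of the overall gap were 66.3%, 71.9%, 76.9% and 46.7%. The median gap of the members in that direction was 0.68, 0.62, 0.83 and 0.23 at the 4 hours in order. That of all genes kept was 0.16, 0.21, 0.45 and -0.03, so it was also largest at hour 18 and smallest at hour 22. The gap of hour 18 was the largest of the 4 in 57 members and that of hour 22 the smallest in 80. In 72 members the gap at hour 22 was under 50% of the mean gap of the other hours. These counts of largest, smallest and reduced gaps were not made over all genes kept, so they are not read as particular to the members.

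The birds of a single hour did not overlap, in the direction of the overall gap, in 87 members at hour 10 (29.8% of all genes kept), 97 at hour 14 (38%), 92 at hour 18 (47.9%) and 68 at hour 22 (32.2%). At hour 22 the birds of a further 14 members did not overlap in the opposite direction. These shares describe the choice, since the same birds entered the score. The comparison of hour 22 rests on 2 birds against 1, and whether that hour differs from the others was not tested by these counts.

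**Figure D3:**
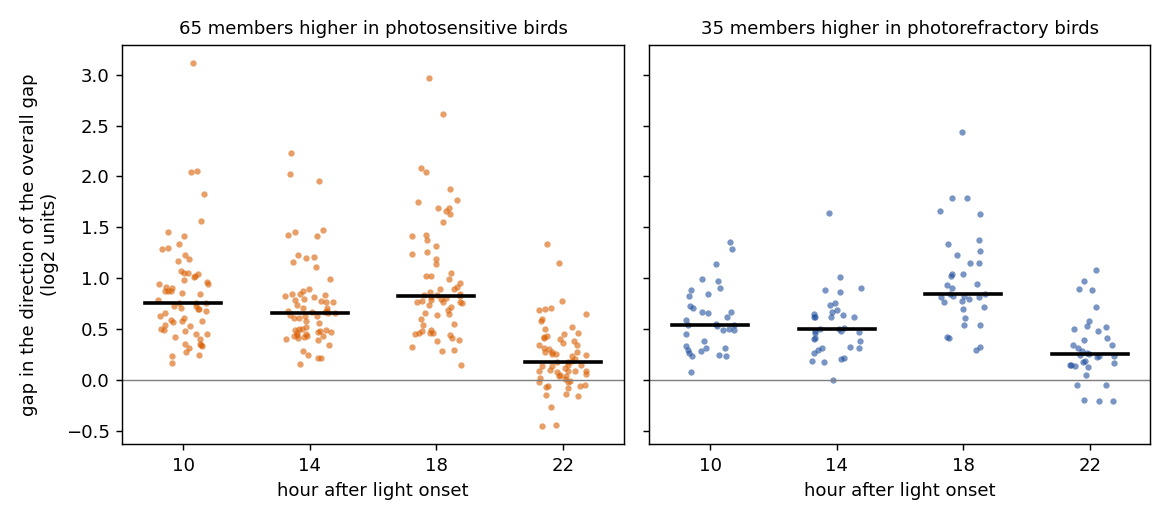
Gap between the states at each hour after light onset (log2 units, signed so that the direction of the overall gap is positive) for the 65 members higher in photosensitive birds (left) and the 35 higher in photorefractory birds (right). Points are members and black lines medians. All points of hours 10, 14 and 18 lie above 0, whereas 19 members lie below 0 at hour 22, where the median over all members was 0.23.

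Averaged over a set, the members gave 1 value per bird, centred on each gene's mean over the 15 birds. For the 65 members higher in photosensitive birds, the photosensitive birds ran from 0.24 to 0.45 log2 units, in the order of the hours 0.37 and 0.42, 0.45 and 0.43, 0.30 and 0.34, and 0.27 and 0.24. The photorefractory birds were at -0.50 and -0.42, -0.35 and -0.26, and -0.68 and -0.64 at hours 10, 14 and 18. The bird of photorefractory hour 22 was at 0.03, between the states. For the 35 members higher in photorefractory birds, the photosensitive birds ran from -0.45 to -0.25, the photorefractory birds of hours 10 to 18 from 0.18 to 0.67, and the bird of hour 22 was at 0.05.

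The photorefractory birds of hour 18 lay farthest from the photosensitive birds in both sets. Their part in the gaps of hour 18, as the shallowest libraries with the shortest fragments, was not tested. Without them the 100 members kept their direction and their median gap was 0.55, against 0.62 with all birds. The choice of members favours this, since all 100 already had that direction at hours 10 and 14. Applied without this pair, the rule took 52 of the members again.

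**Figure D4:**
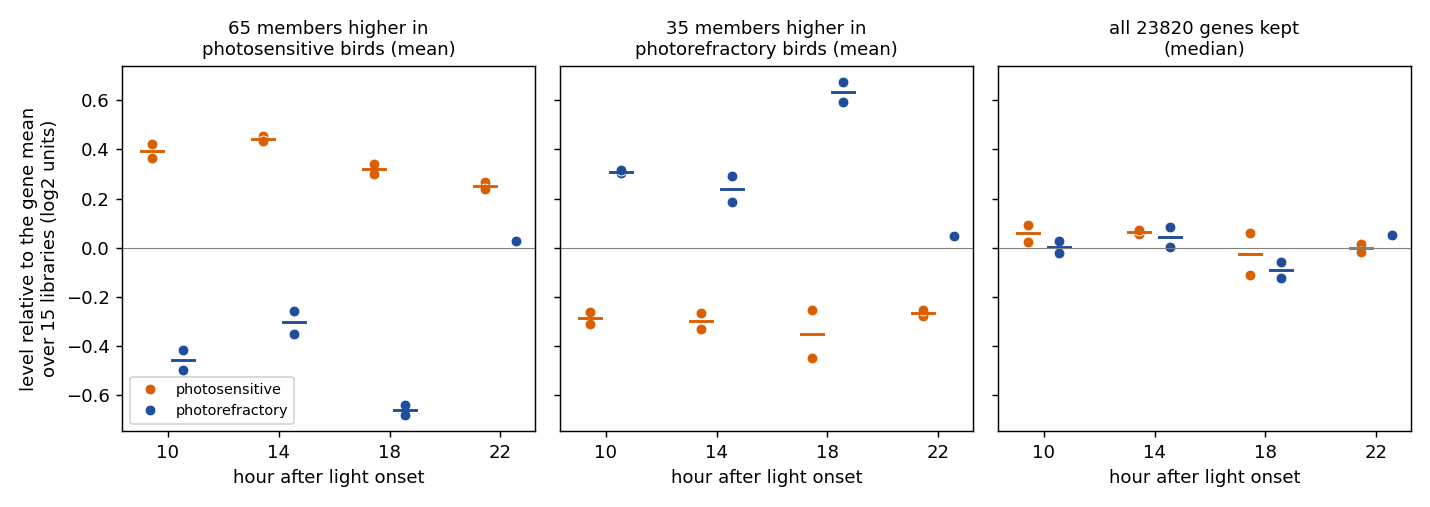
Mean level of the members in each bird (log2 units relative to each gene's mean over 15 birds), by hour after light onset, for the 65 members higher in photosensitive birds, the 35 higher in photorefractory birds, and, as a median, all 23820 genes kept. Points are birds and lines means of 2 birds. The bird of photorefractory hour 22 lies at 0.03 and 0.05, between the states, while the medians of all genes lie from -0.12 to 0.09.

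Gene by gene, the photorefractory bird of hour 22 was shifted from the mean of the other 6 photorefractory birds toward the photosensitive mean in 91 members. It was nearer to the photosensitive mean in 57 members. Its median position was 55.4% of the way from the one mean to the other. The same counts were not made over all genes kept, of which 46.7% had the direction of their overall gap at hour 22. The shift of this bird is therefore not read as particular to the members. This bird was 1 of the 7 used to choose the members, and with 1 bird in its group, the hour and the bird cannot be told apart.

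To read the gap in birds that did not enter the score, the rule was applied to 3 hours and the 100 genes it took were read at the hour left out. The genes kept were those of the filter over all 15 libraries, so the birds of the hour left out did enter the filter. Genes taken without hour 10 had the same direction at hour 10 in 69% (all genes kept, 53.6%), those without hour 14 in 73% (59.8%) and those without hour 18 in 83% (51.5%). At hour 22 the share was 25%, below the 37.5% of all genes kept. The shares lay above those of all genes at hours 10, 14 and 18 and below at hour 22, but at hour 14 this turned on single birds. Without the second photosensitive bird of hour 18 the share at hour 14 was 51% (50.9% of all genes kept), and without the second photorefractory bird of hour 10 it was 57% (59.8%). At hour 10 it was lowest, 54% (50.7%), without the first photorefractory bird of hour 14. No test was made of these shares, since the genes are not independent replicates.

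The size of the gap shrank at each hour left out. The median was 0.67 in the birds that chose the genes and 0.24 at hour 10, 0.68 and 0.22 at hour 14, 0.61 and 0.49 at hour 18, and 0.71 and -0.19 at hour 22. Over all genes kept, the medians at the hour left out were 0.04, 0.10, 0.03 and -0.10. The birds of the hour left out did not overlap in the chosen direction in 27, 45, 52 and 13 genes at hours 10, 14, 18 and 22 (22.8%, 30.4%, 29.7% and 24.2% of all genes kept). They did not overlap in the opposite direction in 14, 7, 7 and 57 genes (15.8%, 15.5%, 24.9% and 45.3%). At hour 10 the count in the chosen direction was therefore close to that of all genes.

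Hour 22 stood out by its opposite direction. For the 68 genes higher in photosensitive birds on hours 10 to 18, the mean level at hour 22 was -0.07 and -0.16 in photosensitive birds and 0.16 in the photorefractory bird. The hour 14 share of 73% was 57% (57.2% of all genes kept) when the photorefractory pair of hour 18 was left out of the choice, and 61% (60.2%) after thinning every library to 1 depth. Without that pair the shares at hours 10 and 22 were 63% (46.0%) and 22% (37.0%). The lists taken on 3 hours shared 38, 42, 40 and 22 genes with the members.

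**Figure D5:**
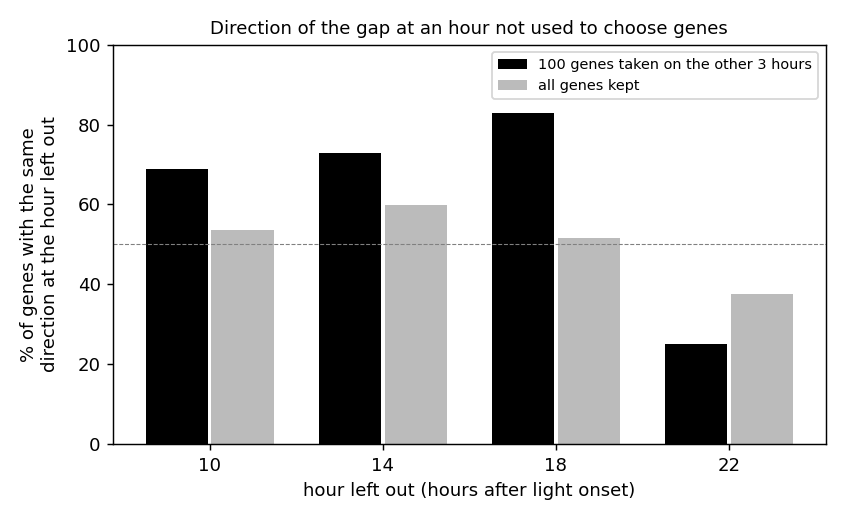
Share of genes (%) whose gap at an hour had the same direction as in the other 3 hours, by the hour left out. Black bars are the 100 genes of highest score on the other 3 hours and grey bars all genes kept. The dashed line marks 50%. The black bars stand at 69%, 73%, 83% and 25%, and the grey bars at 53.6%, 59.8%, 51.5% and 37.5%.

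Few members were called for the hour as single genes. With state as a term, edgeR called 7669 genes (32.2%) for hour and 4 members. With 1 bird left out, edgeR called 1 to 4 members for hour, of 3471 to 8942 genes called. Without the photorefractory pair of hour 18 it called 2, of 8908 genes in all. With a minimum of 5 counts in 2 libraries it called 13302 of 70476 genes and 0 members. With the number of the bird as a block it called 6869 of 23820 genes and 2 members. Summed per read cluster, it called 5447 of 17931 clusters for hour, which include those of 25 members. The rule divides by the spread within a state, which holds the hours, and so selects against genes that vary with the hour. TRINITY_DN99125_c1_g1 had the smallest adjusted p, 0.0265, by edgeR's quasi-likelihood test. Its CPM was 50.3 and 74.6 at hour 10, 50.1 and 70.5 at hour 14, 60.3 and 41.2 at hour 18, and 76.6 and 72.7 at hour 22 in photosensitive birds. In photorefractory birds it was 21.0 and 28.8, 29.3 and 38.0, 22.1 and 14.5, and 70.3. Levels were highest at hour 22 in photorefractory birds, by 1 bird, and the gap there was 0.09.

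TRINITY_DN100948_c10_g1 followed with an adjusted p of 0.0404. It was at 102 to 150 CPM in photosensitive birds, at 62.5 to 101.5 CPM in photorefractory birds of hours 10 to 18 and at 130 CPM in the bird of hour 22. TRINITY_DN90858_c1_g3, described above, had an adjusted p of 0.0378 for hour. The fourth, TRINITY_DN99724_c1_g1, had an adjusted p of 0.0408 and was added to the named genes once its values were known. It was at 8.73 to 20.2 CPM in photosensitive and at 3.49 to 10.9 CPM in photorefractory birds, the highest of which was again the bird of hour 22. Without that bird, edgeR called 5080 genes for hour, 1 of them a member, higher in photorefractory birds. The 3 members called for hour that were higher in photosensitive birds were then not called.

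For the interaction of state and hour, which tests whether the gap differs between hours, edgeR called 105 genes (0.441%) and 0 members. The smallest adjusted p of a member was 0.171, and 19 members had an unadjusted p under 0.05, where 16.2% of all genes did. DESeq2 called 1332 genes, 2 of them members, and limma on log2(TPM + 1) called 201, with 0 members. The interaction test takes all hours together and does not single out hour 22, where 1 bird stands for the photorefractory state. The rule also selects against genes that vary between hours within a state. The 0 member calls of edgeR therefore cannot decide whether the gap of a single member was smaller at hour 22.

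Reads can be divided between near-identical assembled sequences, so a gap of 1 gene may vanish in its cluster. Of the members, 13 were the only gene of their cluster and 87 shared it with up to 9 others. The summed cluster, which holds the member's own counts, had the same direction in 98 members (87.9% of all genes kept) and at least 50% of the member's gap in 87 (77.6%). Both hold by definition where a gene is alone in its cluster. Of the 87 members with neighbours, 74 had at least 50% of their gap in the cluster. The other genes of the cluster, without the member, had the same direction in 71 of the 87 members with neighbours (63.7% of such genes kept). The median score of the clusters was 0.960. TRINITY_DN100459_c3_g4 and TRINITY_DN94468_c2_g3 were among the 13 members with less than 50% of their gap in the cluster, at -0.03 and 0.24, so that reads exchanged with a neighbour and a change of the gene itself cannot be told apart.

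Only 1 cluster held a pair of members. TRINITY_DN98467_c0_g2 had means of 22.3 ± 5.89 CPM in photosensitive (SD, n = 8) and 9.91 ± 4.20 CPM in photorefractory birds (SD, n = 7), and TRINITY_DN98467_c0_g3 had 15 ± 4.46 and 7.20 ± 3.20 CPM. The cluster holds 3 assembled genes and had a gap of 1.16 as a whole, where the pair had 1.16 and 1.02. Their lowest estimated counts in a library were 14.7 and 14.3, not whole numbers, so reads may be divided between them. The pair is not read as 2 independent observations.

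A single transcript made up 31 members (28.9% of all genes kept). Of the 68 members with several transcripts with counts, the largest carried a median of 73.0% of the gap (78.1% for all genes kept), and it carried at least 80% in 26 (38.2%, against 48.1%). Transcripts that moved against the gene amounted to a median of 1.87% of those that moved with it, against 18.5% for all genes kept, and no member exceeded 50%. Genes with a gap near 0 have large opposite shares, so this contrast follows from the choice of members.

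Lengths of the longest transcript were similar, with a median of 1767 nt for the members and 1707 nt for all genes kept, but differed by direction. The median was 1978 nt in members higher in photosensitive and 1499 nt in members higher in photorefractory birds. Transcripts under 500 nt were the longest in 4 of the first (6.15%) and 10 of the second (28.6%), against 12.1% of all genes kept. Among members higher in photorefractory birds, those 10 had median gaps of -0.88, -0.49, -0.87 and -0.43 at hours 10, 14, 18 and 22, and the other 25 had -0.49, -0.51, -0.85 and -0.22. The mean fragments were shortest in the photorefractory pair of hour 18, and the part of fragment length in these gaps was not tested.

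The list itself depended on single birds. With 1 bird left out at a time, the rule took 33 to 81 of the members again. It took 33 without the photorefractory bird of hour 22, and 63 when the second photorefractory bird of hour 14 was left out. Among photosensitive birds, it took 60 when the first bird of hour 10, the second of hour 18 or the second of hour 22 was left out. In each of these lists the 100 members kept the direction of their gap, which the choice of members favours. Only 18 members were in all 15 such lists, 16 of them higher in photosensitive birds, and 32 were in fewer than 8. TRINITY_DN100459_c3_g4, TRINITY_DN90858_c1_g3, TRINITY_DN94630_c0_g2 and TRINITY_DN100948_c10_g1 were in all 15, and TRINITY_DN93588_c0_g1 was in 2.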

How the data were processed

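RNA of 15 hypothalami was sequenced as 150-bp reads, 1 library per bird. The authors trimmed the reads with Trimmomatic, assembled transcripts with Trinity, reduced redundancy with CD-HIT and pseudoaligned the reads to 1 index with kallisto, its version not given in the sources used here. Per the deposited tables, each transcript has an estimated count, not normalized, and a TPM, scaled by the authors' software for length and library, beside its length and effective length.

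The estimated counts of a gene's transcripts were added up and divided by the total of the library (CPM), with a pseudocount of 1 before log2. For tests they were rounded to whole numbers, which moved no library total by more than 0.00197%. edgeR 4.0.16 (R 4.3.3) was used with TMM factors (0.920 to 1.06) and the quasi-likelihood test over all 23820 genes kept, which hold 91.8% to 95.8% of the counts. Genes were called at a Benjamini-Hochberg adjusted p of 0.05 or less. State was tested with hour as a term, hour with state as a term, and their interaction in a model of the 8 groups, where the single bird of photorefractory hour 22 was assumed to vary like the others. The biological coefficient of variation was 32.2%. The labels say that the birds of a group are separate animals. Mean fragment length was taken from length minus effective length of transcripts over 2000 nt.

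The results were also computed with DESeq2 1.42.0 and its size factors, with limma 3.58.1 on log2(TPM + 1) or log2(TPM + 0.1), with other minimum counts or no filter, thinned to 3176047 counts, summed per read cluster, blocked on the number of the bird, and without each bird. Fits were also run on counts simulated with changes between the states and none between the hours. The outcome is not given here, and nothing is read from it. Plots used Python 3.11.15 with matplotlib 3.10.9.

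The members and lists were chosen with earlier results of these data known. At most 2 identifiers per direction were named for each of highest score, largest gap, highest mean CPM and smallest p for hour, with those of ranks 100 and 101 and of clusters that hold several members. No list of pathways or cell types could be looked up, because no table used here pairs the identifiers with names, and no sequence was used.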

Additional observations from a re-analysis of the deposited data

Results flagged for a closer look

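Named genes were checked for a bird far from the others of its state, by the gap to the nearest bird as a share of the range, in 34 groups of 7 or 8 birds. For birds drawn alike and genes not picked on these values, chance flags about 1 in 20 such groups. The groups here mix the hours and the genes were picked on the same values, so the flags are not read against that rate. The bird of photorefractory hour 22 was far above the other 6 photorefractory birds in 3 of the 34 groups, with 276 CPM of TRINITY_DN95134_c0_g4, 70.3 CPM of TRINITY_DN99125_c1_g1 and 97.3 CPM of TRINITY_DN88217_c0_g2. The last of these is the first gene outside the list.

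Among the mean levels of the 2 sets of members, bird 2 of photosensitive hour 18 was far below the other photosensitive birds in the members higher in photorefractory birds, at -0.45 log2 units.

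For the 100 genes chosen on hours 10, 14 and 18, the median gap at hour 22, signed by the direction of those hours, was -0.19, opposite to the 0.71 in the birds that chose them. The difference was not tested.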

How the results depend on the processing

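Of the 100 members, the rule took 44 again with TPM per gene, 42 with a minimum of 5 counts, 66 with 50 counts, 48 with libraries thinned to the smallest total, 14 with hour as a term in the SD and 22 without hour 22, and, among settings chosen after seeing the data, 52 without the photorefractory libraries of hour 18 and 40 without hour 18. With 1 bird left out it took 33 to 81. With a pseudocount of 0.1 it took 95 and with TMM factors 82. Every member that passed the filter kept its direction in these settings, which the choice of members favours.

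Held-out shares moved to 74% at hour 18 with 50 genes taken and, in settings chosen after seeing the data, to 61% at hour 14 with thinned libraries and to 57% without the photorefractory libraries of hour 18. With 1 bird left out they ran from 54% to 83% at hour 10, 51% to 83% at hour 14, 71% to 85% at hour 18 and 22% to 33% at hour 22. The members' median gaps ran from 0.63 to 0.72, 0.54 to 0.62, 0.83 to 0.92 and 0.17 to 0.23 at the 4 hours. The members with at least 50% of their gap in the read cluster were 84 to 88, and those with 1 transcript carrying 80% or more were 25 to 30.

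State calls, 0 by edgeR, were 152 with DESeq2, 618 with no filter beyond a count above 0, 1 with sums per read cluster (the cluster of TRINITY_DN90858_c1_g3), 1 on hours 10, 14 and 18 alone (chosen after seeing the data) and 0 to 48 with 1 bird left out. They were 0 with limma on either scale, DESeq2's size factors, thinning and a minimum of 5 counts in 2 libraries. Hour calls, 7669, were 13302 with 5 counts in 2 libraries and 18279 with no filter, and 3471 to 8942 with 1 bird left out. They were lowest without bird 2 (3471) or bird 1 (4223) of photosensitive hour 22 and without the bird of photorefractory hour 22 (5080). Interaction calls, 105, were 1332 with DESeq2, 201 with limma on log2(TPM + 1), 50 with 5 counts in 2 libraries, 2200 with no filter, 58 with sums per read cluster, and 0 without the photorefractory libraries of hour 18 or without hour 18, both chosen after seeing the data. With 1 bird left out they ran from 0, without either photorefractory bird of hour 18, to 1003, without bird 1 of photosensitive hour 18. The cause was not tested.

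Birds share only a number across groups. Over the 21 pairs of the 7 groups of 2 birds, the deviations of same-numbered birds correlated at -0.48 to 0.25 (median -0.02), with 7 pairs over 0.1. With the bird number as a block, state calls were 0, hour calls 6869 and interaction calls 0.

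With 2 birds per group, and 1 at photorefractory hour 22, neither the photorefractory level nor the gap at that hour can be separated from that bird. Members under 10 CPM rest on few counts in the shallowest libraries, where 3 counts are 0.945 CPM. Among the named genes, the gaps that moved with the processing were those of TRINITY_DN94468_c2_g3, TRINITY_DN100459_c3_g4 and TRINITY_DN85007_c5_g4 in their read clusters (13 of all 100 members had under 50% of their gap there, and 2 the opposite direction), and of TRINITY_DN94630_c0_g2 (0.34) and TRINITY_DN100948_c10_g1 (0.96) with TPM.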
